A study of Mus musculus with 7 samples.

Results

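Preconfluent 3T3-L1 cells given conditioned medium were compared with preconfluent cells given fresh MDI, in 1 RNA-seq library each, labelled Pro-CM and Pro-MDI. The genes described are the protein-coding genes, by the gene type in the authors' table, with an FPKM (fragments for each kilobase of a transcript, relative to all mapped fragments) of 5 or more in either library. There were 8123 of them among 20164 protein-coding genes and 23996 genes of all types. 3T3-L1 is a mouse embryonic fibroblast line that can be turned into fat cells. MDI is a differentiation medium with insulin, the glucocorticoid dexamethasone, and IBMX, an inhibitor of the phosphodiesterases that break down cAMP. The conditioned medium (CM) was MDI medium that had been on other 3T3-L1 cells while these differentiated for 48 h, so that both groups received the inducers, CM after those cells could add to it or take from it. No time of treatment is given for the preconfluent pair, and no passage or clone is named. The other 5 libraries of the series are a 0h control of confluent cells before differentiation and the same pair of media at 4 h and 24 h, and the series was stated to be a search for a factor that 3T3-L1 cells need to differentiate.

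No condition was replicated, so there is no spread between cultures against which to set a difference, and none was tested here. A difference is log2(FPKM + 1) in Pro-CM minus that in Pro-MDI, on which low genes show less than their full change. A gene is called higher or lower where this difference is at least 1 in size, which is a rule of size. Depth is unknown. The FPKM sums were 624626 in Pro-MDI and 625643 in Pro-CM, within the range of 558532 to 714427 over the 7 libraries. The spacing of low values (2527 genes above 0 and under 0.3 FPKM in both) had its commonest log2 ratio, Pro-CM to Pro-MDI, at -0.35 (239 genes). That would make a read worth 1.27-fold more in Pro-MDI. Among ratios well above that one, the commonest was 0.65 (160 genes), which can arise from the same spacing and is no separate estimate. Relative depth was not checked in another way and is not settled. The labels tag the cells as adipocytes. All 8 markers of preadipocytes and fibroblasts had an FPKM of at least 5, with a sum of 4218 in Pro-MDI and 4292 in Pro-CM, whereas 6 of 8 markers of mature fat cells were under 1 FPKM in both, and Adipoq (adiponectin) was 0.208 in Pro-MDI and listed at 0 in Pro-CM. The other 2 markers of mature fat cells, Fabp4 and Lpl, were at 5 FPKM or more in both libraries, and all 8 summed to 115.8 in Pro-MDI and 60.4 in Pro-CM. Both libraries are called preconfluent 3T3-L1 cells here, and these markers do not bear on confluence.

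The direction of every difference rests on the library labels, because the values hold no separate mark of the medium. Across the 8123 genes the difference between media in the preconfluent pair and that in the 4h pair, which share no library, ran opposite to each other (Pearson r = -0.71, Spearman rho = -0.68, a description across genes, which are not replicates). With the 24h pair there was little relation (r = 0.03, rho = 0.14). Whether the labels of a pair were exchanged was not tested, and Pro-CM is used throughout for the library labelled so.

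Transforming growth factor beta (TGF-β) and activin are secreted ligands that bind paired receptor kinases and act through SMAD proteins in the nucleus. They turn on genes of extracellular matrix, of the actin cytoskeleton and of their own inhibition, and TGF-β is known to hold preadipocytes back from becoming fat cells. In preadipocytes, cAMP, glucocorticoid and insulin together switch on C/EBP factors and then PPARγ, the main regulator of the fat cell programme, while a spread cell shape with many actin fibres goes with the undifferentiated state.

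The genes with the largest differences included inhibitors and targets of TGF-β signalling, and the promoters of 4 of the genes described below are shown to give their sequence context. The first 3 are those of the 3 TGF-β, BMP and Wnt genes with the largest differences that have a promoter in the RefSeq table used, and Plaur was added after its value was seen. Each line holds the 250 bases before the annotated start on the gene's own strand, 5′ to 3′, from RefSeq on GRCm38.p6. Capitals mark matches, on either strand, to an AP-1 site (TGANTCA), a SMAD element (CAGAC), a TEAD site (GGAATG) or a CArG box, the element bound by serum response factor.
Inhba (chr13:16011601-16011850, plus strand): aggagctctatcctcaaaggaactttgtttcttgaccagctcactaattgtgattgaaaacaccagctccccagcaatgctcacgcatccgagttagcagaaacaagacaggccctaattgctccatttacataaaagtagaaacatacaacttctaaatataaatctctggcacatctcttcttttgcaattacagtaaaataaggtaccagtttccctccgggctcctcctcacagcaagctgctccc
Tgfb1 (chr7:25686752-25687001, plus strand): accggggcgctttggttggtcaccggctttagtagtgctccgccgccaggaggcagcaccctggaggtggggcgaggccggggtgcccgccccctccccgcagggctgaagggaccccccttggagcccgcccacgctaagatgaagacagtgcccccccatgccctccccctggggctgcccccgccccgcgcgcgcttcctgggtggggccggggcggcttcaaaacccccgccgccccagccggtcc
Grem1 (chr2:113758649-113758898, minus strand): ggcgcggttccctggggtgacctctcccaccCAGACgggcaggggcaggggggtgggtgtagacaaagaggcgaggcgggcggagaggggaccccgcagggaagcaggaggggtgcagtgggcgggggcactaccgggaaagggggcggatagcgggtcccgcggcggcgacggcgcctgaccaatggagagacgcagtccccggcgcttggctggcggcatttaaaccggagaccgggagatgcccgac
Plaur (chr7:24462233-24462482, plus strand): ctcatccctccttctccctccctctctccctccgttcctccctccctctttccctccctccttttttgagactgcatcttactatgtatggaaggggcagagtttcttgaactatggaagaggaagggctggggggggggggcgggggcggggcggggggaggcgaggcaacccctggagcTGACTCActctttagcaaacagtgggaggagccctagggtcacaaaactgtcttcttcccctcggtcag
The Inhba and Tgfb1 stretches held none of the 4 motifs, that of Grem1 held 1 SMAD element and that of Plaur 1 AP-1 site. A missing match says only that these letters are not in this window.

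Of the 6312 genes with a promoter in the table, 126 were higher in Pro-CM and 46 were lower. Where a gene had more than 1 promoter, the first listed was used and the others were left out. A CArG box stood in 8 of the 126 promoters (6.35%) of higher genes and in 0 of the 46 of lower genes. Beside these stand 1.19% of the promoters of all genes described and 1.4% of all 27025 promoters so taken, 1 a gene. An AP-1 site stood in 10.3% of the promoters of higher genes and 6.52% of those of lower genes, beside 3.69% of the genes described and 6.87% of all promoters. SMAD elements (42.9% of higher genes and 39.7% of the genes described) and TEAD sites (10.3% and 9.66%) were at close to the same share in these 2 sets. Among the 46 promoters of lower genes, 23 held a SMAD element and 6 a TEAD site. Both are larger shares than those of the higher genes. No test was made of these shares, and a match is no evidence of binding. The 8 stretches of 40 bases, in which capitals mark the CArG box and no other motif, are printed because, of the motifs searched, this one had the share in higher genes that lay farthest in ratio from that in all genes described, and they were chosen after the values were seen.
Dusp5 (chr19:53529053-53529092, plus strand): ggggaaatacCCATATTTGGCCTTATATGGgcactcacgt
Ppbp (chr5:90768421-90768460, plus strand): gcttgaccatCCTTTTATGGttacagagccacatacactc
Eml1 (chr12:108370925-108370964, plus strand): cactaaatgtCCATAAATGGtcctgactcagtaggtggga
Myo1e (chr9:70207308-70207347, plus strand): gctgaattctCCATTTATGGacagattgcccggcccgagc
Actg1 (chr11:120348556-120348595, minus strand): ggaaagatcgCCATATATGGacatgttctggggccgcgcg
Rasa4 (chr5:136083669-136083708, plus strand): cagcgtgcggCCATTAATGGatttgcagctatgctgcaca
Vcl (chr14:20929161-20929200, plus strand): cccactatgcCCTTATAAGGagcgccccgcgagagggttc
Gsto1 (chr19:47854931-47854970, plus strand): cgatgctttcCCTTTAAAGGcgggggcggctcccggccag
Dusp5 encodes a phosphatase that acts on ERK and held 2 adjoining boxes, the farther of which began 82 bases before the start. Actg1 (cytoplasmic γ-actin) and Vcl (vinculin, which joins actin to adhesion sites) held 1 each, 90 and 227 bases before their starts, and Myo1e (a membrane-bound myosin) held 1 at 32 bases.

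Most genes differed little between the media. Of the 8123, 7863 (96.8%) were within 2-fold, with a median difference of -0.01 and an SD of 0.40 over genes. How many of all genes lay above or below 0 in this pair was not counted. Counts by sign in the lists below therefore stand beside that median alone. The 2-fold limit was passed by 185 genes (2.28%) that were higher in Pro-CM and by 75 (0.923%) that were lower. These shares are the ones to set beside the counts of higher and lower genes in each list below. A 4-fold limit was passed by 33 of the higher genes and by 4 of the lower ones. The surplus of higher genes was found at high levels too, with 50 higher and 6 lower among the 1647 genes of a mean FPKM of 50 or more. Of the higher genes, 54 were under 5 FPKM in Pro-MDI, and of the lower genes 32 were under 5 in Pro-CM. Over the 7622 genes at 5 or more in both, 131 were higher and 43 lower. The genes nearest the level limit were Wdr7 (Pro-MDI) and Sclt1 (Pro-CM) just inside and Nqo2 and Mtg1 (both in Pro-MDI) just outside, all at 5.0 FPKM after rounding. Nearest to the size limit, Atp6v1g1 was inside at 1.005 and Fmnl3 outside at 0.996.

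**Figure D1:**
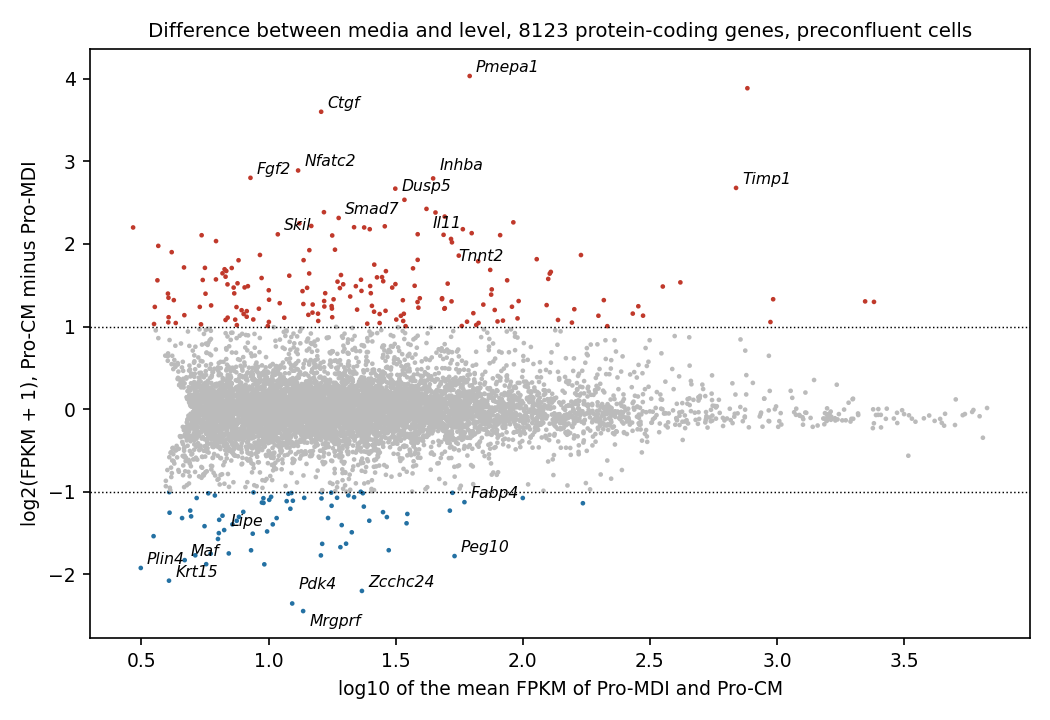
Each point is 1 of the 8123 genes, with the log10 of its mean FPKM in Pro-MDI and Pro-CM on the x axis and the difference in log2(FPKM + 1), Pro-CM minus Pro-MDI, on the y axis. Dotted lines mark differences of 1 and -1, beyond which 185 genes (red) were higher and 75 (blue) lower; Timp1 combines a high level with a large difference.

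The authors' deposited table gives a Cuffdiff p-value and q-value for each gene, computed from the pair without replicates. A q-value under 0.1 was given in the authors' deposited table to a lone gene of this pair, Pmepa1 (p = 5e-05, q = 0.0338), and the next smallest q-value there was 0.30, for Tnc. The authors' deposited table of genes that were 2-fold different and had p under 0.05 held 77 genes, 66 higher and 11 lower in Pro-CM. Of these, 71 are among the genes described.

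Genes of the TGF-β and activin pathway stood well apart between the libraries. Of 29 genes listed for TGF-β, BMP and Wnt signalling 13 were measured at 5 FPKM or more. Of these 8 were higher in Pro-CM and 0 lower, beside 2.28% and 0.923% of all genes. Their median difference was 1.12 beside -0.01 over all genes. With no limit on low values the median over all 29 was 0.0. Skil and Wnt5a, among the 8, passed the level limit through Pro-CM alone, and Sfrp2 passed it through Pro-MDI alone. Over the 10 genes at 5 FPKM or more in both libraries the median was 1.23. Among the ligands, Inhba (the βA chain, which pairs to form activin A) was 10.4 FPKM in Pro-MDI and 78.4 in Pro-CM, a difference of 2.79. Tgfb1 was 11.4 and 40.7 (1.75), and Tgfb3 was 7.06 and 21.3 (1.47). Wnt5a, a ligand of the non-canonical Wnt pathway, was 4.81 and 11.6 (1.12). Thus 3 ligands of the TGF-β family were between 3.02-fold and 7.54-fold higher in Pro-CM.

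Of genes that encode inhibitors of TGF-β, activin or BMP signalling, Smad7, Skil, Pmepa1 and Grem1 passed 2-fold, while Smad6 and Fst did not. Smad7, an inhibitory SMAD that TGF-β itself turns on, was 5.64 FPKM in Pro-MDI and 32.1 in Pro-CM (difference 2.31), and Smad6, which chiefly restrains BMP signalling, was 14.4 and 26.7 (0.84). Skil, a corepressor that binds SMAD proteins, was 3.45 and 18.3 (2.12). Pmepa1, whose membrane protein binds SMAD proteins and dampens TGF-β signalling, had the largest difference of all, at 6.23 and 117.4 FPKM, a ratio of 18.9 and a difference of 4.03. Its locus in the deposited table is chr2:173224465-173276533, with no genome build named. The secreted BMP antagonist Grem1 was above 2-fold (43.0 and 88.2), whereas Fst, the activin-binding follistatin, was 13.4 and 14.4. BMP target Id1 was 278 and 514 (0.89), and Sfrp2, a secreted Wnt antagonist, was the sole gene of the list with a negative difference, at 9.74 and 4.81 (-0.88).

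Some genes that TGF-β can induce were also among those with large differences, and 3 are given as examples chosen after their values were seen. Ctgf (connective tissue growth factor, CCN2) was 1.61 FPKM in Pro-MDI and 30.6 in Pro-CM, a ratio of 19.1 on a low value in Pro-MDI. The extracellular matrix protein tenascin C, Tnc, was 9.51 and 47.8, and Il11, a cytokine that TGF-β induces in fibroblasts, was 12.4 and 71.2. Each of these 3 was also higher in the 4h MDI library than in the 4h CM library.

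**Figure D2:**
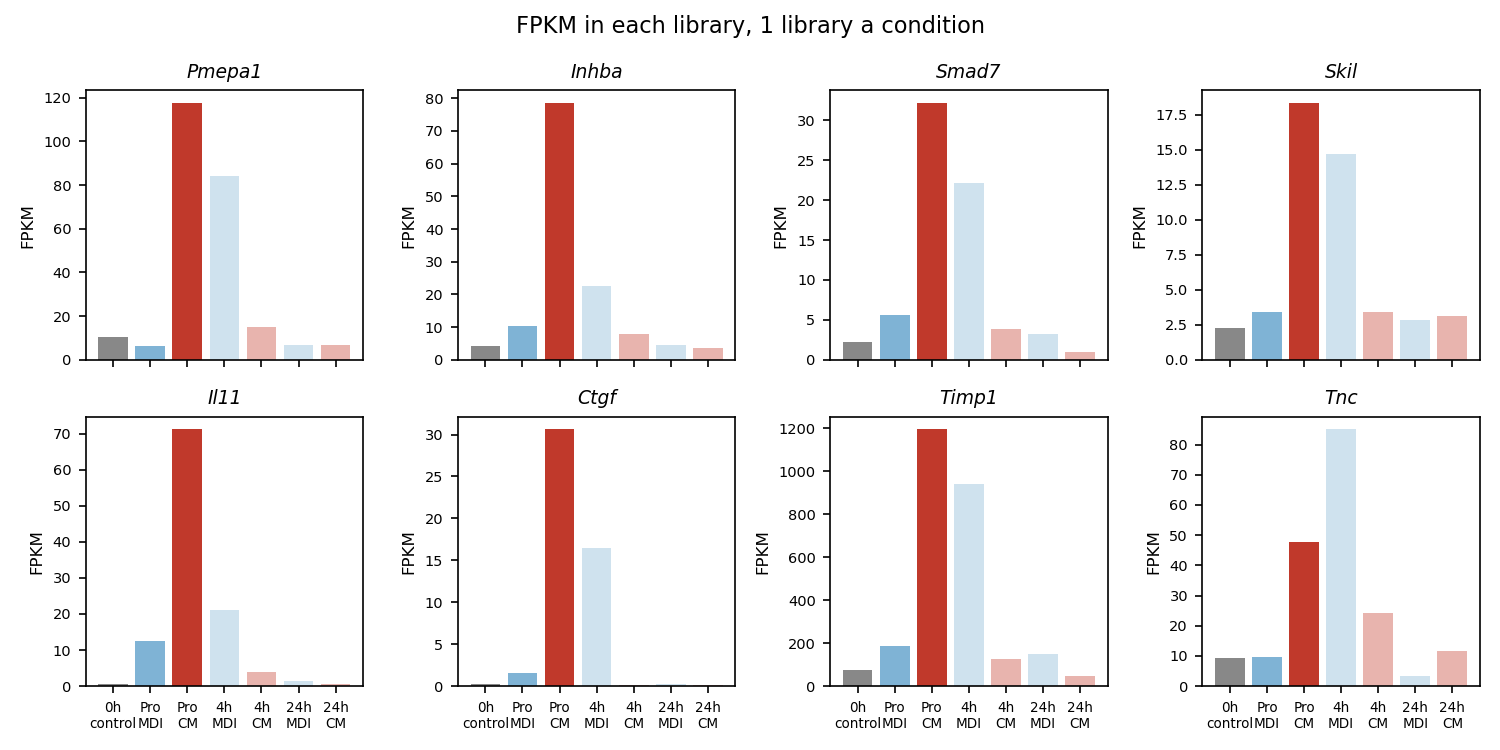
Bars give the FPKM of 8 genes in each of the 7 libraries, 1 library a condition and so without error bars, with the preconfluent pair in full colour and a scale of its own for each gene. Pro-CM and 4h MDI hold the 2 highest values of all 8 genes, for Pmepa1 117.4 and 84.2 FPKM against 14.9 or less in the others.

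Proteases, their inhibitors and matrix genes did not move as a block. Of 14 measured protease genes and inhibitors 5 were higher and 1 lower in Pro-CM, with a median difference of 0.29. Among the higher ones were the metalloproteinase inhibitors Timp1 (186 and 1194 FPKM) and Timp3 (15.7 and 82.9), the urokinase receptor Plaur (13.9 and 76.8) and the tissue plasminogen activator Plat (8.41 and 41.6). Mmp19, a metalloproteinase, was lower (7.47 and 2.45), and Adamts1 was close to the limit (55.2 and 27.7, -0.97). Timp2, another inhibitor of metalloproteinases, was 112 and 95.5, a difference of -0.22. Thus 2 of the 3 measured Timp genes were higher, and none of the measured Mmp genes.

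None of 14 collagen chains reached 2-fold in either direction, where 96.8% of all genes did not either, and their median was 0.23. Col1a1 and Col1a2, the chains of type I collagen, were 851 and 930 FPKM and 941 and 812. Col5a3 had the highest value (5.52 and 11.1, 0.89), and Col6a1 and Col6a2 had the lowest (-0.74 and -0.79). Among 20 other matrix genes 4 were higher and 0 lower, with a median of 0.01: Tnc, the microfibril protein Fbn1 (26.8 and 69.5), the laminin chain Lamb1 (38.8 and 81.9) and the collagen crosslinking enzyme Lox (124 and 273). Cuffdiff marked the Lox estimate as failed in the deposited table. Fibronectin, Fn1, another gene that TGF-β can induce, was 310 and 302.

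Genes for making hyaluronan, a matrix sugar polymer, were noticed after the values were seen, and Cd44 alone of those named stood in a list, that of stromal surface markers. Has2, a hyaluronan synthase, was 3.94 FPKM in Pro-MDI and 22.5 in Pro-CM, and Cd44, a hyaluronan receptor at the cell surface, was 43.5 and 130. Uap1, Ugdh and Gfpt2, enzymes that supply its sugar precursors, had differences of 1.49, 1.33 and 1.43. As these were picked for their values, their agreement in direction carries no weight of its own.

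Actin and adhesion genes leaned the same way. Of 16 measured actin and contractile genes 15 were above 0, 3 were higher and 0 lower, with a median difference of 0.50. Past 2-fold were Csrp1 (46.6 and 109, a LIM protein on actin fibres), Vcl (51.2 and 108) and Pdlim7 (43.4 and 90.6, a scaffold on actin fibres). The smooth muscle type genes Acta2 (710 and 803 FPKM), Tagln (121 and 157) and Tpm1 (446 and 461), which mark strong contractile differentiation of fibroblasts, differed by 0.05 to 0.38. Outside the list the cytoplasmic actins Actb (1390 and 3422) and Actg1 (1279 and 3162) both had a difference of 1.30. Srf, the serum response factor that binds CArG boxes, was 7.74 and 15.8 (0.94).

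Of 12 measured genes of YAP signalling and the matricellular CCN family, 4 were higher and 0 lower, with a median of 0.84. Over the 10 of them at 5 FPKM or more in both libraries the median was 0.61. Ctgf, 1 of the 4, passed the level limit through Pro-CM alone. The other higher genes were Cyr61 (CCN1, 31.0 and 153 FPKM), Thbs1 (thrombospondin 1, 19.2 and 55.9), which can release TGF-β from its latent form, and Wisp2 (37.9 and 77.2, at the limit with 1.01). Amotl2, a junction protein that YAP turns on, was 36.1 and 70.4 (0.94), while Axl, a receptor kinase, was 106 and 88.2 (-0.26). Among 7 integrin subunits Itgav (16.8 and 57.2), Itgb3 (12.7 and 37.5) and Itga5 (186 and 409) were higher. Itgav and Itgb3 pair into a vitronectin receptor, and Itga5 binds fibronectin together with Itgb1, which was 168 and 256. Itga3, a laminin-binding subunit, was lower at 19.1 and 8.53.

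**Figure D3:**
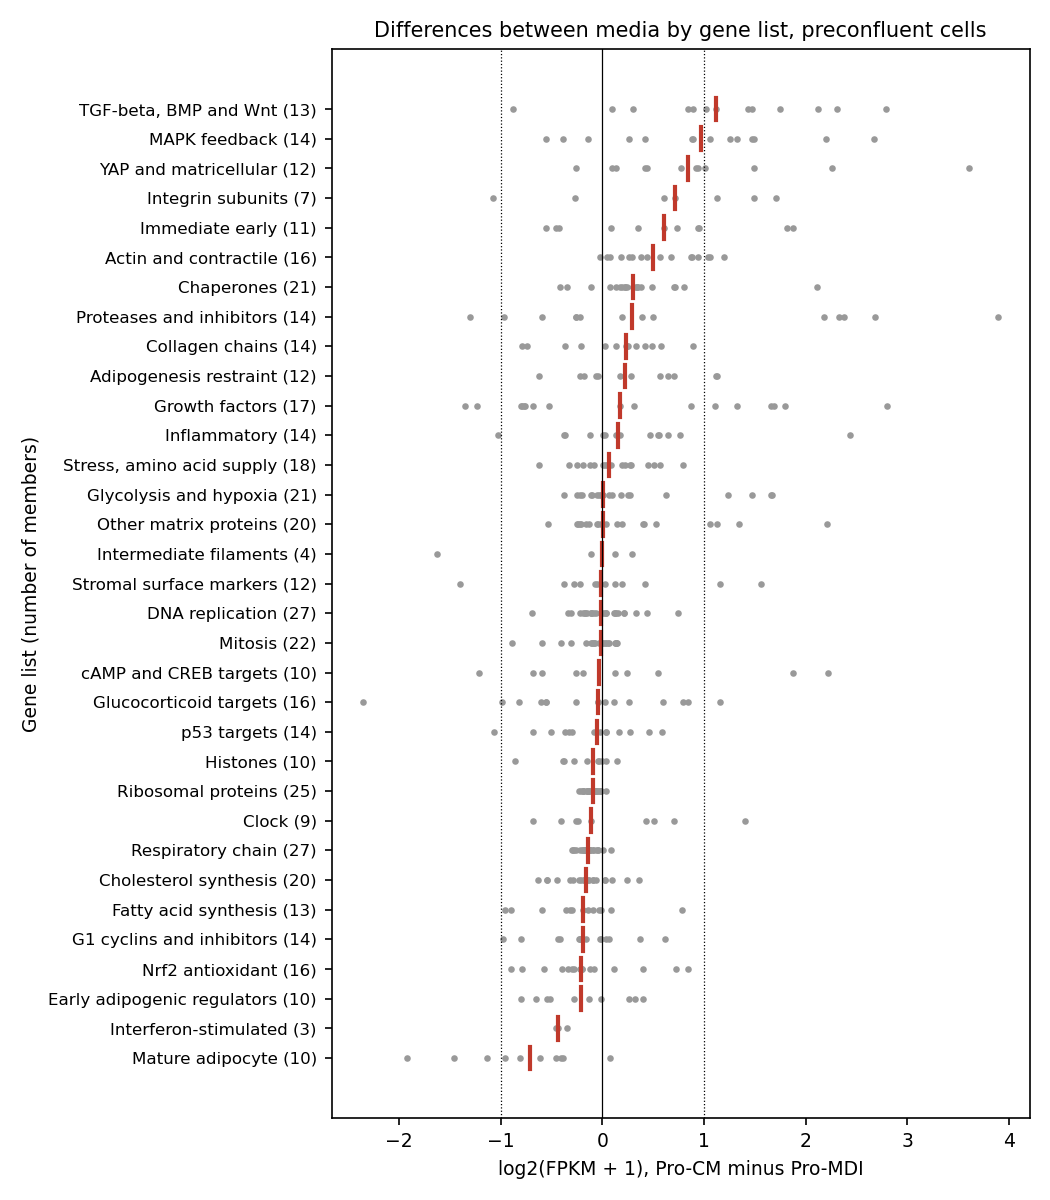
Grey points are the genes of each of 33 lists with an FPKM of 5 or more in either preconfluent library, with their difference in log2(FPKM + 1), Pro-CM minus Pro-MDI, on the x axis; red bars are list medians and the number of genes stands beside each name. The TGF-β, BMP and Wnt list lies farthest to the right (median 1.12) and the mature adipocyte list farthest to the left (median -0.71).

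Feedback genes of the MAPK pathway, which growth factors turn on through ERK, were higher in 7 of 14 cases and lower in 0, with a median of 0.97. Of these 7, Dusp2, Dusp6 and Etv5 were under 5 FPKM in Pro-MDI and passed the level limit through Pro-CM alone, and over the 11 genes at 5 or more in both libraries the median was 0.88. Dusp5 was 7.83 FPKM in Pro-MDI and 55.2 in Pro-CM, Dusp4 was 7.85 and 39.7, and Dusp6 was 3.10 and 8.79, all phosphatases that act on MAP kinases. Phlda1 (11.1 and 33.0), the ERK-dependent transcription factor Etv5 (3.38 and 11.2), the ERK inhibitor Spry2 (6.16 and 13.9) and Dusp2 (2.00 and 6.48) made up the rest. Dusp1, a phosphatase that glucocorticoids also induce, had a negative difference, at 87.6 and 59.6. Among 11 immediate early genes 2 were higher and 0 lower: Junb, a subunit of AP-1, at 72.3 and 266, and Ier3 at 49.6 and 177. Jun and Myc were 30.3 and 21.7 and 46.4 and 49.4.

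Growth factors split. Of 17 measured genes 6 were higher and 2 lower, with a median of 0.17. Among the higher genes Fgf2 and Hbegf passed the level limit through Pro-CM alone, and both lower genes passed it through Pro-MDI alone. Over the 11 genes at 5 FPKM or more in both libraries the median was also 0.17. Fgf2 was 1.38 FPKM in Pro-MDI and 15.6 in Pro-CM and Hbegf, a ligand of the EGF receptor, 2.84 and 12.4. Vegfa, which drives growth of blood vessels, was 61.4 and 196, Pdgfa 18.9 and 48.6 and the EGF receptor ligand Ereg 10.9 and 24.7. On the other side Figf (Vegfd) was 7.30 and 2.54 and Igfbp6, which binds insulin-like growth factor, 11.2 and 3.79. The calcium-dependent transcription factors Nfatc2 (2.34 and 23.8) and Nfatc1 (20.4 and 95.8) and the runt factors Runx1 (0.897 and 6.47) and Runx2 (4.56 and 11.4) were higher too. H2-M1 (9.37 and 59.1), of the large family of histocompatibility genes, is uncertain, since reads may be shared between near-identical members.

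Genes of the fat cell and of lipid handling lay on the lower side in Pro-CM. Of 20 mature adipocyte genes 10 were measured at 5 FPKM or more; 3 were lower, 0 higher and 9 below 0, and the median difference was -0.71. Fabp4, the fatty acid carrier of fat cells, was 81.2 FPKM in Pro-MDI and 36.7 in Pro-CM (-1.13). Lipe, hormone-sensitive lipase, was 10.3 and 3.08 (-1.46), and Plin4, a lipid droplet coat protein, was 5.56 and 0.728 (-1.92). Scd1, a fatty acid desaturase, was 74.9 and 38 (-0.96) and Lpl, lipoprotein lipase, was 32.8 and 23.7 (-0.46), both within 2-fold on the scale used. Dgat2, which makes triglyceride, was the exception above 0 at 4.70 and 5.04. With a pseudocount of 5 in place of 1 the differences of Plin4 and Lipe were -0.88 and -0.92 and the list median -0.45, so these rest on low values. Over the 6 list genes at 5 FPKM or more in both libraries the median was -0.53.

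None of 10 measured early adipogenic genes reached 2-fold, where 96.8% of all genes did not either, and their median was -0.21. Pparg was 14.5 FPKM in Pro-MDI and 11.8 in Pro-CM, and Cebpb, which cAMP and glucocorticoid induce early, was 549 and 500. Cebpa and Cebpd were under 5 FPKM in both libraries, at 1.70 and 0.725 and at 4.47 and 2.08. Among 12 genes that restrain adipogenesis 2 were higher and 0 lower, with a median of 0.22: Wnt5a and Hes1, a Notch target, at 20.4 and 45.9. Dlk1 (Pref-1), the preadipocyte factor, was 178 and 201.

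**Figure D4:**
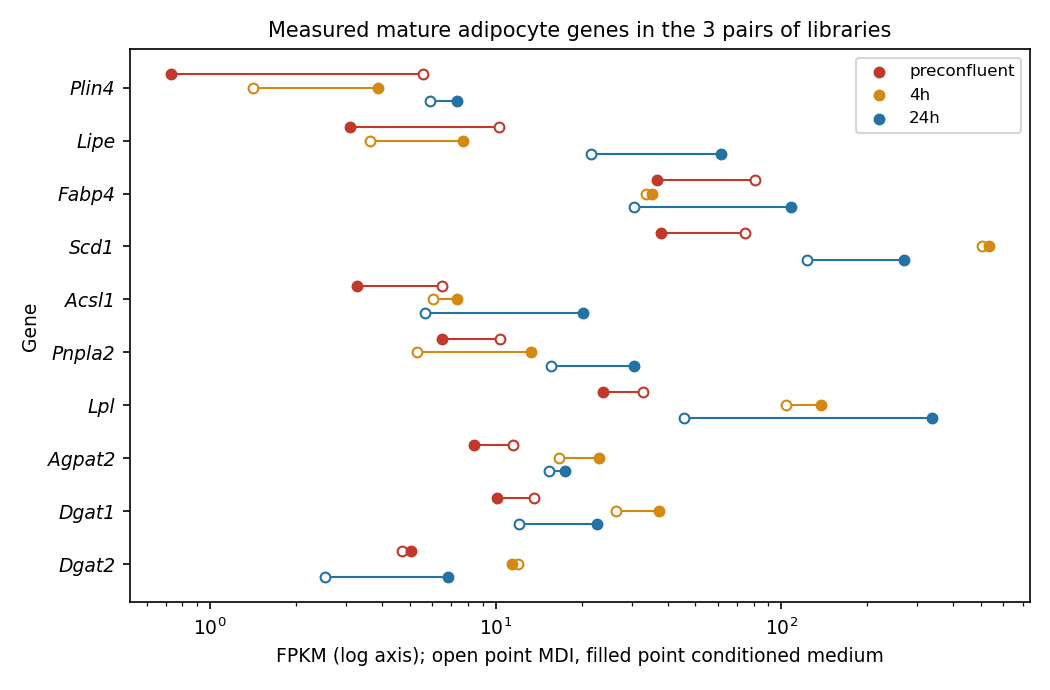
Lines join the FPKM with MDI (open point) and with conditioned medium (filled point) of the 10 measured genes of the mature adipocyte list on a log axis, in the preconfluent, 4h and 24h pairs. In the preconfluent pair 9 of 10 lay lower with conditioned medium, for Fabp4 36.7 against 81.2, with Dgat2 the exception, while at 24h all 10 lay higher.

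Targets of the inducers themselves were split. Over 16 measured glucocorticoid targets the median was -0.04, with 1 higher and 1 lower. Fkbp5, a chaperone of steroid receptors and a common readout of glucocorticoid action, was 161 FPKM in Pro-MDI and 80.5 in Pro-CM (-0.99), and Tsc22d3 (GILZ) was 69.1 and 38.8. Pdk4, a kinase that shuts off pyruvate dehydrogenase, was 21.4 and 3.38 (-2.35), whereas Mt2, a metallothionein, was 514 and 923 and Il1rl1, the receptor for interleukin-33, 167 and 374. Over 10 measured cAMP targets the median was -0.03, with Nr4a2 (4.56 and 24.9) and Junb higher, Rgs2 (17.4 and 6.97), a regulator of G protein signalling, lower, and Pde4b and Pde4d, cAMP phosphodiesterases, at 18.4 and 20.1 and 15.7 and 18.7. Nr3c1, the glucocorticoid receptor, was 8.49 and 4.46 (-0.80).

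Of the 12 genes with the lowest differences, Pdk4 and Plin4 stood in a list and the other 10 in none. Mrgprf, an orphan G protein coupled receptor, was 23.8 FPKM in Pro-MDI and 3.56 in Pro-CM (-2.44), and Zcchc24 was 38.9 and 7.69. Krt15, a keratin, was 7.18 and 0.938, and Krt13, which lies close by on chromosome 11, was 31.0 and 9.36 (-1.63). Transcription factor Maf was 7.86 and 1.5, Fgfr2, a receptor for fibroblast growth factors, 8.51 and 1.79, and the retrotransposon-derived imprinted gene Peg10 84.0 and 23.8. Xdh (xanthine dehydrogenase, of purine breakdown) was 25.4 and 6.73, the claudin Cldn15 9.51 and 1.86, Trerf1 9.67 and 2.17, and Aim1, a symbol shared by several genes in the table, 15.7 and 3.55.

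Broad growth programmes had small differences. None of 22 mitosis genes, 27 DNA replication genes, 27 respiratory chain genes, 25 ribosomal protein genes or 20 cholesterol synthesis genes passed 2-fold. Of all genes 96.8% did not either. The list medians ran from -0.16 to -0.01. Below 0 were 25 of the respiratory chain, 24 of the ribosomal protein and 15 of the cholesterol synthesis genes. For mitosis it was 11 and for DNA replication 14. The median over all genes was -0.007, and the share of all genes below 0 in this pair was not counted. Ccnb1 (cyclin B1) was 84.8 FPKM in Pro-MDI and 85.0 in Pro-CM, against 6.56 in the confluent 0h control. Of the glycolysis and hypoxia list 4 of 21 were higher and 0 lower, with a median of 0.01: the glucose transporter Slc2a1 (53.5 and 128), hexokinase Hk2 (15.8 and 45.5), the peptide hormone Adm (2.74 and 10.9) and Vegfa, while Gapdh was 2502 and 2504. Of 14 inflammatory genes Il11 was higher and Vcam1, an adhesion molecule for leukocytes, lower (16.4 and 7.54), with a median of 0.15. In all, 463 list genes were measured, of which 52 were higher and 13 lower, so 133 higher and 62 lower genes stood in no list.

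Chaperones had a median of 0.30, with 18 of 21 above 0, 1 higher and 0 lower. Hspb1, a small heat shock protein that also binds actin, was 30.1 FPKM in Pro-MDI and 133 in Pro-CM, and Hspa5 and Dnajb9, chaperones of the endoplasmic reticulum, were 569 and 931 and 10.4 and 18.9. The heat-induced Hspa1b and Hsph1 had negative differences of -0.42 and -0.35. Over 18 genes of stress and amino acid supply, with a median of 0.07, none passed 2-fold, as was so for 96.8% of all genes. Ddit4, an inhibitor of mTOR, was highest in that list at 55.6 and 97.2, and Ddit3 (CHOP) lowest at 31.8 and 20.4.

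Genes of the cell cycle's entry phase were within 2-fold in all 14 cases, as were 96.8% of all genes, with a median of -0.19. Ccnd1 (cyclin D1) was 116 FPKM in Pro-MDI and 179 in Pro-CM, Ccnd3 (cyclin D3) was 168 and 96.1, and Cdkn2b, which encodes the CDK inhibitor p15, was 21.9 and 10.6 (-0.98). Of 14 p53 targets 1 was lower, Sesn1 at 14.2 and 6.27, and their median was -0.05. None of 10 histone genes passed 2-fold (median -0.09), which is again near the share over all genes. Of 9 clock genes, with a median of -0.11, the repressor Bhlhe40 was higher at 13.4 and 37.1.

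Fatty acid synthesis genes had a median of -0.19 and none of 13 passed 2-fold, where 96.8% of all genes did not either, with 11 below 0 and 2 above. Scd2, a desaturase, was 231 FPKM in Pro-MDI and 123.5 in Pro-CM, and the higher of the 2 above 0 was Acly, which makes cytosolic acetyl-CoA, at 100.5 and 173. Among 16 genes of the Nrf2 antioxidant response, with a median of -0.21 and none past 2-fold, Hmox1 (heme oxygenase) was 100.5 and 57.5 and Srxn1 (sulfiredoxin) 41.8 and 69.6. The 3 measured interferon-stimulated genes, Ifi35, Stat2 and Bst2, had differences of -0.46 to -0.35. Of 12 stromal surface markers 2 were higher, Cd44 and Il1rl1, and 1 lower, Ly6a (Sca-1, 28.6 and 10.2), with a median of -0.01. Of 4 measured intermediate filament genes Krt13 was lower, and Vim (vimentin) was 1900.5 and 2066.

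Markers of other cell types were low, with some exceptions. Of 16 muscle markers 12 were under 1 FPKM in both libraries and 6 were at 0 in each, and their sum was 27.7 in Pro-MDI and 92.1 in Pro-CM, of which Tnnt2 (cardiac troponin T) made up 20.2 and 85.1; its part in the higher actin genes was not tested. For bone and cartilage the sum over 12 markers was 89.5 and 115, with Runx2 higher, 9 under 1 in both and 2 and 1 at 0. The 9 leukocyte markers (8 in the table) summed to 6.60 and 9.83, and all 8 endothelial and all 8 epithelial markers were under 1 in both, 3 and 5 of the endothelial ones and 5 and 5 of the epithelial ones at 0. In bulk RNA fewer cells of a type and less RNA per cell cannot be told apart, and this holds for Fabp4 and the other fat cell genes as well.

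At 4 h the same contrast gave values of the other sign for most of these genes. In 4h CM 56 of the 8123 genes (0.689%) passed the 2-fold limit upward from 4h MDI and 249 (3.07%) passed it downward. Of the 185 genes higher in the preconfluent pair, 112 (60.5%) were at least 2-fold lower at 4 h and 0 higher, and 179 (96.8%) were below 0, beside 49.7% of all genes. Timp1 was 941 FPKM with MDI and 128 with CM, and Ctgf 16.5 and 0.118. The TGF-β, BMP and Wnt list had a median of -1.13 at 4 h, the MAPK feedback list -0.59 and the actin and contractile list -1.38. The 6 of the 185 that were not below 0 at 4 h were Vegfa (140 and 201), Wnt5a (20.7 and 26.9), Lamb1 (111 and 119), Ptk2b (5.09 and 10.6), Myo10 (25.9 and 27.1) and the merged locus of Eif3j1 and Eif3j2.

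**Figure D5:**
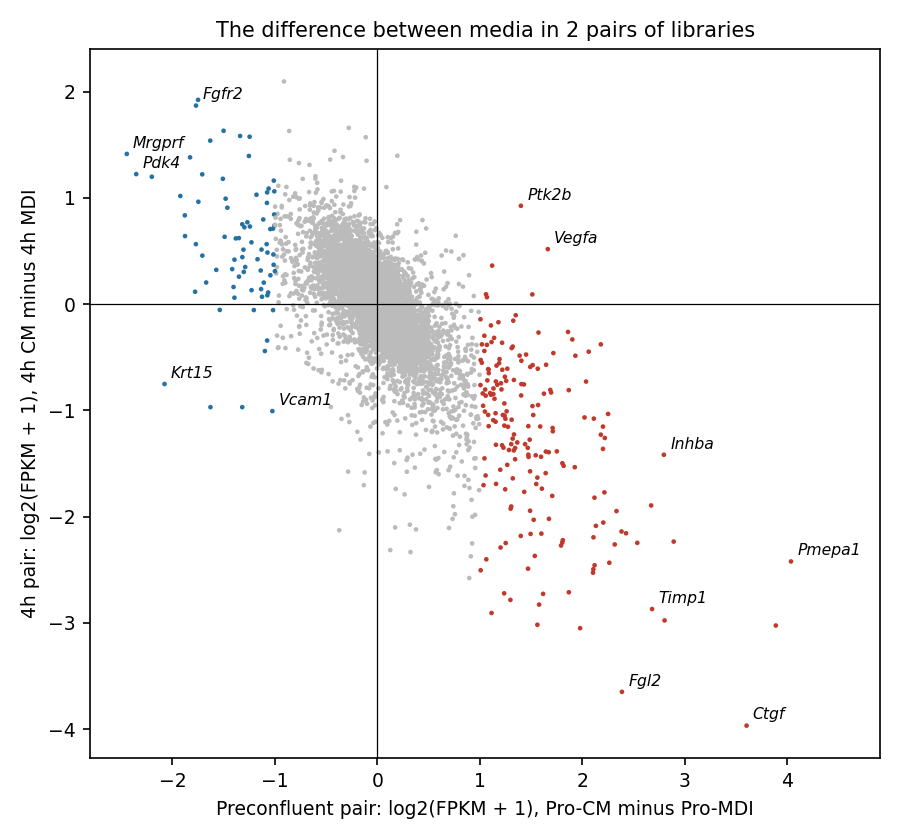
Each point is 1 of the 8123 genes, with the difference in log2(FPKM + 1) between conditioned medium and MDI in the preconfluent pair on the x axis and in the 4h pair on the y axis; red and blue mark genes at least 2-fold higher or lower in Pro-CM. Of the 185 red genes 179 lie below 0 on the y axis, and of the 75 blue genes 66 lie above it.

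Of the 75 genes lower in Pro-CM, 19 (25.3%) were at least 2-fold higher in 4h CM and 66 were above 0 there. Pdk4 was 9.08 FPKM in 4h MDI and 22.5 in 4h CM, Mrgprf 13.2 and 37.0, and Fgfr2 13.3 and 51.2. Vcam1 alone was at least 2-fold lower in both pairs (160.5 and 79.4 at 4 h). The keratins Krt15 (38.7 and 22.6) and Krt13 (50.9 and 25.5) also kept a negative difference. The 2 pairs differ in confluence, no time is given for the preconfluent pair and an exchange of labels was not tested, so these cannot be told apart. No test of the difference between pairs is possible with 1 library a condition.

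At 24 h the differences showed little common direction with those of the preconfluent pair. In 24h CM 89 of the 8123 genes (1.1%) passed the limit upward from 24h MDI and 95 (1.17%) downward. Of the 185 genes 13 (7.03%) were higher and 12 (6.49%) lower there, both above the shares over all genes. Those higher in both included Tnc (3.28 and 11.5), Thbs1 (4.29 and 12.9), Itgav (8.22 and 18.2) and Lamb1 (52.4 and 121). Pmepa1 was 6.68 and 6.70 and Skil 2.84 and 3.12, so that these genes were low with either medium, whereas Timp1 was 149 and 47.1. Among the 75 lower genes 10 (13.3%) were higher and 4 (5.33%) lower at 24 h, the latter Ly6a, Osr1, Slpi and Them6. The mature adipocyte list had a median of 1.14 at 24 h, with Fabp4 at 30.4 and 108 and Lipe at 21.6 and 61.8.

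The confluent 0h control, which had received neither medium, serves as a further point of reference for level, although it differs from both preconfluent libraries in confluence. Of the 185 genes higher in Pro-CM, the control was below both preconfluent libraries for 113, between them for 53 and above both for 19. Il11 was 0.5 FPKM in the control, below both, while Plat was 96.1 and thus above both. Of the 75 lower genes the control was above both libraries for 46, between for 18 and below both for 11. These placings were not counted over all the genes described, so no share stands beside them. Whether they are particular to the higher and lower genes was not tested. Maf (102 FPKM), Mrgprf (86.3) and Gas1 (364, against 50.9 in Pro-MDI and 18.9 in Pro-CM), a growth arrest gene, were higher in the control than in either, and Krt13 (0.173) was lower than in either.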

How the data were processed

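RNA-seq libraries of mouse 3T3-L1 cells were prepared from Trizol-extracted total RNA by standard Illumina methods, per the labels' protocols. TopHat2 2.0.13 and Cuffdiff 2.2.0 were used, per the submitters' processing notes; settings, strandedness and genome build: not given in the sources used here. Each deposited table holds the FPKM of every gene in 2 libraries. It also holds a p-value and a q-value that Cuffdiff gave for the pair, without replicates, per the file headers. A line of each deposited table was empty; that gene, and a few that the naming rule below would include, are not reported here. Deposited starts count from 0 and were raised by 1. Of 7705 genes with a RefSeq entry of the same symbol, 7697 (99.9%) overlapped it on GRCm38.p6.

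From these values the difference of log2(FPKM + 1) was computed for protein-coding genes with an FPKM of 5 or more in either library, and a difference of 1 or more in size was counted. With 1 library a condition no test was run. The rule was run on simulated data with large planted changes in genes well above the level limit. That checks the computation alone and does not cover low genes or spread between cultures. Genes were described in 33 pathway lists and 7 cell type marker lists. Named were the 12 highest and 12 lowest genes, up to 4 genes of each list with the largest difference, those with the smallest deposited p-values and 12 fixed genes; further list genes are named to show genes that did not differ, and genes outside the lists, other than the highest and lowest, were chosen after their values were seen. The genes and lists were chosen with earlier results of these data known. Alternatives were pseudocounts of 0.1 and 5, other limits on low values, and rescaling to TPM or to a median ratio of 1. Values were computed with pandas 2.3.3, numpy 2.4.6 and scipy 1.17.1 under Python 3.11.15, and drawn with matplotlib 3.10.9.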

Additional observations from a re-analysis of the deposited data

Results flagged for a closer look

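In 7 gene lists the median difference between media had opposite signs in the preconfluent pair and in another pair and was at least 0.5 in size in both. Lists with smaller medians of opposite sign, such as chaperones (0.30 in the preconfluent pair and -0.31 at 4 h), are not among these 7. The value given is the list's median difference in the preconfluent pair minus that in the other pair, on the log2(FPKM + 1) scale. Against the 4h pair it was 2.25 for TGF-β, BMP and Wnt signalling, 1.90 for YAP and CCN genes, 1.88 for actin and contractile genes, 1.56 for MAPK feedback, 1.46 for integrins and 1.35 for immediate early genes. Against the 24h pair it was -1.85 for mature adipocyte genes. With 1 library a condition the difference between pairs was not tested.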

How the results depend on the processing

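Of the settings tried, a pseudocount of 5 left 122 genes higher and 30 lower in Pro-CM, since it shrinks low genes, and a limit of 5 FPKM in both libraries, which was chosen after seeing the data, left 131 and 43, over fewer genes. A pseudocount of 0.1, rescaling to TPM or to a median ratio of 1, limits of 1 or 10 FPKM or none, and leaving out genes whose estimate Cuffdiff marked as failed (also chosen after seeing the data) gave 161 to 211 higher and 55 to 105 lower. No named gene or list median that was past its limit changed sign. With no limit on low values the TGF-β, BMP and Wnt median was 0.0, as 16 of its 29 genes were under 5 FPKM in both, that of mature adipocyte genes -0.41, of YAP and CCN genes 0.44, of immediate early genes 0.38, of actin and contractile genes 0.33 and of integrins 0.15. With a pseudocount of 5, 14 of 155 named genes changed sides of the 2-fold limit. No paired analysis was possible because each condition has 1 library and no replicate number. Depth is unknown, so no counting error can be given, and low genes carry the least certain ratios.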

Other observations

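Genes of types other than protein-coding were left out of the counts above. Of these, 317 had an FPKM of 5 or more in either preconfluent library and 48 were at least 2-fold different, of which 24 were listed at 0 in 1 of the 2 libraries. Of the 48, 38 had microRNA or small nucleolar RNA symbols.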
